A study of Drosophila melanogaster with 12 samples.

Results

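The genes described here are the 8 core genes of the Drosophila circadian clock: Clk, cyc, per, tim, cry, vri, Pdp1 and cwo. They were chosen by name, with earlier results of these data known, and all 8 were found among the 16272 gene names of the deposited count table. RNA had been sequenced from cells sorted out of dissociated brains of Canton-S adults aged 3 days, with nuclei labelled by UAS-Red Stinger under a Gal4 driver line for each population. Glia (Repo driver) and all neurons (Elav driver) served as controls for the optic lobe neuron types T4 and Pm2. T4 neurons respond to moving bright edges, and Pm2 is a type of local interneuron of the medulla, a layered neuropil of the optic lobe. The labels do not name the Gal4 lines of T4 and Pm2, and a population and its driver line cannot be told apart. The Elav sort can take in T4 and Pm2 cells as well. Each population had 3 libraries, which the labels do not tie to separate animals or pools, so the p-values measure the spread between libraries. The time of day at which brains were taken and the light schedule of the flies are also not given in the labels, and their part in the levels of these genes was not tested.

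In the fly clock, the bHLH-PAS proteins CLOCK (Clk) and CYCLE (cyc) bind together to E-box elements and activate per, tim, vri, Pdp1 and cwo. PERIOD and TIMELESS build up, enter the nucleus and repress CLOCK and CYCLE, and CRYPTOCHROME (cry) is a blue-light photoreceptor that marks TIMELESS for degradation in light. In an interlocked loop the bZIP repressor VRILLE (vri) and the bZIP activator PDP1 act on Clk, and CLOCKWORK ORANGE (cwo) is an Orange-domain repressor at E-boxes. In the fly brain the clock is known from a small set of clock neurons, from photoreceptors and from many glia, and most other neurons are thought not to run it.

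Library totals were 35012892 to 57811629 counts. Levels are counts per 1000000 of the scaled library total (CPM), given as mean ± SD with n = 3, and 1 count was worth 0.0177 to 0.0263 CPM. Where all 3 libraries of a population were at 0, a limit of 3 counts over the population was used, from 0.0186 (Pm2) to 0.0239 CPM (neurons). These limits and the intervals of ratios cover counting error only. Glia libraries were less alike than those of the other populations, with correlations of log2 (CPM + 1) across genes of 0.966 to 0.975 between glia libraries and of at least 0.990 within the others. Markers matched the labels: the glial factor gene repo stood at 3426 CPM in glia, 0.845 in neurons, 0.327 in T4 and at no count in Pm2. The summed level of 8 glial markers was 37690 to 47120 CPM in glia libraries, 513.5 to 818 in neurons, 148 to 158 in T4, where wrapper had no count, and 30.5 to 57.2 in Pm2. The summed level of 6 neuronal markers was 480.2 to 529 CPM in glia and at least 8020 CPM in each library of the other populations. Most of the glial sum came from Syx1A, at 243 CPM against 1513 in neurons, and elav, at 138 against 641. These separated the 2 controls least, elav by 4.64-fold, and the other neuronal markers stood at 45.8 CPM (nSyb) or less in glia. In T4, 5 markers of T4 cells summed to 3986 to 4296 CPM against at most 979 elsewhere, and in Pm2 the GABA genes Gad1 and VGAT summed to at least 12270 CPM against at most 2015 elsewhere. The T4 marker TfAP-2 was also high in Pm2, at 294 CPM against 422 in T4. Gad1 made up most of the GABA sum, at 12440 CPM in Pm2, while VGAT stood at 494 CPM in Pm2, 258 in neurons and 118 in T4.

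All 8 clock genes were higher in glia than in all neurons, by 1.56-fold for Pdp1 to 443-fold for vri among the 7 genes with more than 4 counts in neurons. The same 8 genes were lower in T4 than in glia and lower in Pm2 than in glia. The neuron populations did not lack the genes evenly. Pdp1 and cyc stood at 49.1% to 64.1% of their glial level in each neuron population. The share was 12.2% to 17.3% for cwo, while Clk and vri were close to absent. For per the share was 3.40% in neurons and 3.54% in Pm2 but 0.336% in T4. For tim and cry it was 1.46% and 7.20% in neurons and at most 0.561% in T4 and Pm2. Between the neuron types, per was 10.5-fold lower in T4 than in Pm2, while cry had counts in T4 and none in Pm2. In bulk samples such as these, fewer cells with a transcript and less of it in each cell cannot be told apart.

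**Figure D1:**
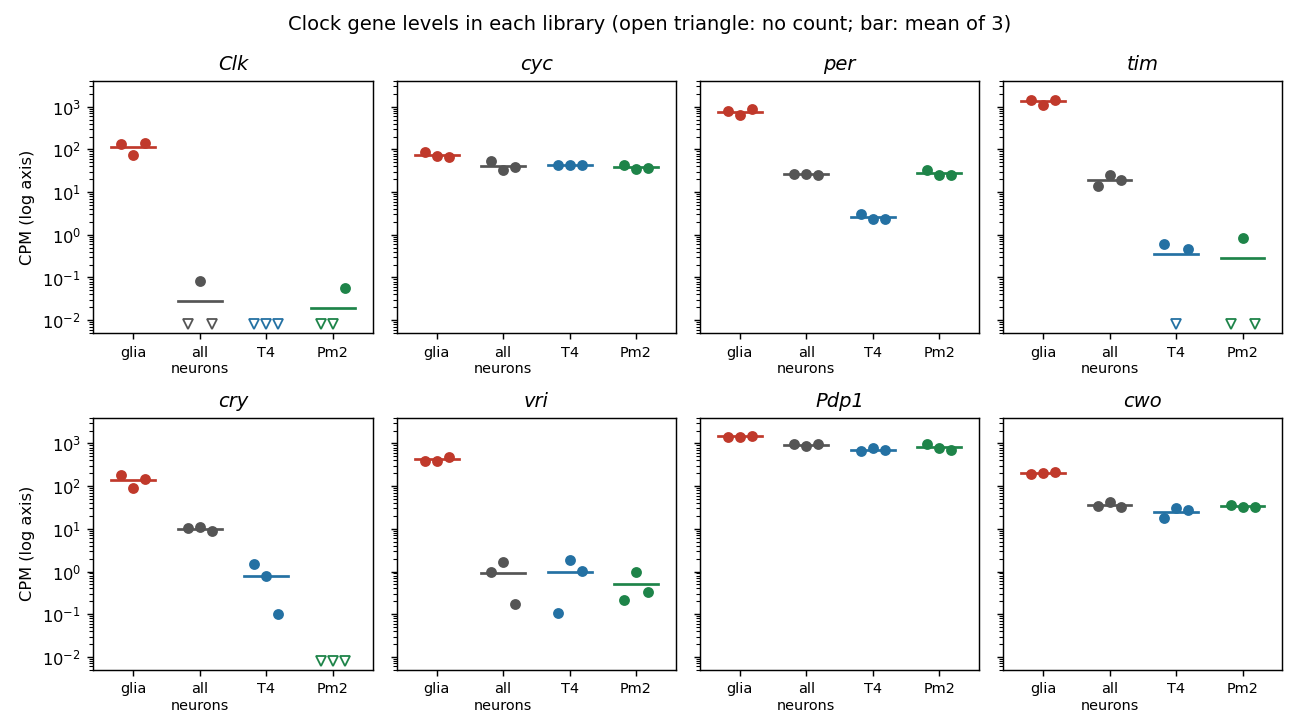
Level of each clock gene in CPM (log axis) in the 3 libraries of glia, all neurons, T4 and Pm2; points are libraries, bars are means, and open triangles at the bottom are libraries with no count. The glia libraries lie above all others for every gene, Pdp1 and cyc move little on this axis, and cry is absent from the 3 Pm2 libraries.

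The activator pair differed most sharply in its distribution. Clk (FBgn0023076, 3L, 7763233 to 7775603, minus strand, BDGP6) stood at 135 CPM, 73.7 CPM and 138 CPM in the 3 glia libraries. In neurons it had 4 counts, all in library 2, in Pm2 it had 3 counts, all in replicate 3, and in T4 it had none. The lowest glia library thus held 3807 counts of Clk while no other library held more than 4. The glia-to-neuron ratio of summed Clk counts had a 95% counting interval from 1386 to 13030, and the glia-to-Pm2 ratio one from 2080 to 29480. Without neuron library 2 or Pm2 replicate 3, those populations held no count of Clk at all. With T4 set at its limit of 3 counts, Clk was 5809-fold higher in glia, with a lower 95% counting limit of 4724. Clk was called in the 3 comparisons with glia by edgeR's quasi-likelihood test. It had passed the filter on low counts through its glia libraries alone, which fixes that difference, so the calls add no support. No difference in Clk could be detected among the neuron populations at this depth.

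Its partner cyc (FBgn0023094, 3L, 19813770 to 19815938, minus strand) was present in every library. It stood at 87.0 CPM, 68.9 CPM and 67.95 CPM in glia and at 52.6 CPM, 32.95 CPM and 37.8 CPM in neurons. The 3 T4 libraries lay close together, at 42.9, 43.5 and 42.9 CPM, and the Pm2 libraries stood at 42.5, 35.7 and 36.3 CPM. Every glia library therefore lay above every neuronal one, and the neuron populations overlapped apart from T4, which lay just above Pm2. The difference was 1.82-fold between glia and neurons (log2 0.86 ± 0.17, SE; edgeR adjusted p = 0.00102), 1.73-fold between glia and T4 (edgeR adjusted p = 0.00179) and 1.96-fold between glia and Pm2 (edgeR adjusted p = 0.000478). With scaling by library totals the comparison with T4 lost its call (edgeR adjusted p = 0.0762). In glia the count of Clk was 1.55 times that of cyc on average over libraries, with log2 ratios of 0.64, 0.10 and 1.03.

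The repressor gene per (FBgn0003068, X, 2685580 to 2692780, plus strand) showed 3 levels. It stood at 779.6 CPM, 647 CPM and 892 CPM in glia. In neurons the libraries gave 26.8, 26.95 and 25.1 CPM, and in Pm2 they gave 32.3, 24.8 and 24.9 CPM. In T4 they gave only 3.03, 2.38 and 2.37 CPM. Glia lay above all others, neurons and Pm2 overlapped, and T4 lay below both with no overlap. The glial level was 29.4-fold that of neurons (log2 4.88 ± 0.18, SE; edgeR adjusted p = 1.49e-09), 28.3-fold that of Pm2 and 297-fold that of T4. T4 was 10.1-fold lower than neurons (log2 -3.34 ± 0.17; edgeR adjusted p = 8.9e-07) and 10.5-fold lower than Pm2 (log2 -3.39 ± 0.17; edgeR adjusted p = 7.1e-08). Between Pm2 and neurons the log2 difference was 0.06 ± 0.15 (edgeR adjusted p = 0.815), which does not show that the populations are alike. The difference of per between T4 and Pm2 was called under each alternative setting tried.

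Its partner tim (FBgn0014396, 2L, 3493986 to 3508119, minus strand) did not follow per among the neurons. It stood at 1474 CPM, 1071 CPM and 1467 CPM in glia and at 14.1 CPM, 25.1 CPM and 19.4 CPM in neurons. In T4 the libraries had 34, 0 and 24 counts, 0.618 CPM at most, and in Pm2 they had 0, 45 and 0 counts. The T4 and Pm2 libraries overlapped, and both lay below every neuron library. The glia level was 68.4-fold that of neurons (log2 6.10 ± 0.87, SE; edgeR adjusted p = 7.7e-05). T4 was lower than neurons (log2 -5.71 ± 0.95; edgeR adjusted p = 0.00179) and so was Pm2 (log2 -6.10 ± 0.98; edgeR adjusted p = 0.000594). Leaving out T4 replicate 1 moved the T4 difference to -6.33, and T4 replicate 2, which had no count, to -5.15, both still called. Leaving out Pm2 replicate 1 or 3 moved the Pm2 difference to -5.50 and -5.52, and without Pm2 replicate 2 the fitted value was -12.87, which depends on the prior count of the fit and is no measured difference, since Pm2 was then at 0. T4 and Pm2 differed by log2 0.39 ± 1.14 (edgeR adjusted p = 0.842). Without Pm2 replicate 2, the only Pm2 library with counts, Pm2 was at 0 and the edgeR adjusted p was 0.0341. That call appeared only with this library left out. The ratio of per to tim counts was 0.5801 in glia and 1.42 in neurons on average over libraries, and in Pm2 replicate 2 the log2 ratio was 4.84.

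The photoreceptor gene cry (FBgn0025680, 3R, 19212154 to 19215442, plus strand) gave a different level in each population. It stood at 185 CPM, 91.0 CPM and 146 CPM in glia and at 10.7, 10.7 and 8.97 CPM in neurons. T4 had 82, 38 and 5 counts, or 1.49, 0.779 and 0.0989 CPM, and Pm2 had no count in any library. No populations overlapped. Glia stood 13.9-fold above neurons (log2 3.79 ± 0.59, SE; edgeR adjusted p = 0.000341), and neurons stood above T4 by 12.7-fold (log2 difference of T4 from neurons -3.67 ± 0.63; edgeR adjusted p = 0.00363). With Pm2 set at its limit of 3 counts, cry was 546.7-fold higher in neurons, 43.6-fold higher in T4 and 7365-fold higher in glia. The lower 95% counting limits of these ratios were 444, 34.9 and 5989. The edgeR adjusted p-values against Pm2 were 0.000104, 0.00365 and 2.83e-06. The T4 level rested on few counts: without T4 replicate 1 its difference from neurons was -4.53 and without T4 replicate 3 it was -3.15, both still called. Over all alternatives the difference between T4 and Pm2 had adjusted p-values from 2.86e-08 to 0.0218. The exons of cry overlap vib on the opposite strand and the non-coding lncRNA:CR46393 on its own strand, over 17.8% of their 1896 bases. The library kit as named does not mark strand, so reads from such stretches cannot be told apart.

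Overlap was smaller for the other genes. For tim it was 9.89% of the exon bases, with snoRNA:Or-CD16 and lncRNA:CR46495, and for per it was 1.08%, with dyw. Clk, cyc, vri, Pdp1 and cwo had no exonic overlap in the annotation used. Counts are per gene, so the 13 annotated transcripts of Pdp1, the 10 of tim and the 5 each of Clk and vri are summed.

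The genes of the interlocked loop split. vri (FBgn0016076, 2L, 5288944 to 5311223, plus strand) stood at 385 CPM, 394.5 CPM and 493 CPM in glia. Its counts in neurons were 37, 79 and 7, those in T4 were 6, 89 and 51, and those in Pm2 were 12, 52 and 18. The neuron populations overlapped, and no library among them was above 1.83 CPM. Glia were 443-fold above neurons (log2 8.79 ± 0.93, SE; edgeR adjusted p = 6.5e-06), 437-fold above T4 and 824.5-fold above Pm2. Without neuron library 2 the difference from neurons was log2 9.54, without T4 replicate 2 that from T4 was -9.58, and without Pm2 replicate 2 that from Pm2 was -10.57. No comparison among neurons, T4 and Pm2 passed the test for vri, with log2 differences of 0.02 ± 0.82, -0.90 ± 0.87 and 0.92 ± 0.85 for T4 and Pm2 against neurons and for T4 against Pm2.

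Pdp1 (FBgn0016694, 3L, 7811458 to 7867369, minus strand) was abundant everywhere. Glia libraries stood at 1435, 1451 and 1508 CPM, and neuron libraries at 944, 887.5 and 986 CPM. T4 libraries stood at 657, 795 and 705 CPM and Pm2 libraries at 964, 791 and 690.5 CPM. Glia lay above all others, T4 lay below neurons without overlap, and Pm2 overlapped with both. The glia-to-neuron difference was 1.56-fold (log2 0.64 ± 0.12, SE; edgeR adjusted p = 0.000757), glia were 2.04-fold above T4 (edgeR adjusted p = 2.1e-05) and 1.80-fold above Pm2 (edgeR adjusted p = 0.000102). T4 was 1.31-fold lower than neurons (log2 -0.39 ± 0.12; edgeR adjusted p = 0.0444), a call that was lost under 8 of its alternatives. These were both other scalings, no filter, and leaving out T4 replicate 1 or 3 or any neuron library, with adjusted p-values of 0.0591 to 0.145. Pm2 differed from neurons by -0.21 ± 0.12 (edgeR adjusted p = 0.226), which passed the test only without Pm2 replicate 1 (edgeR adjusted p = 0.0472). The count of vri was 0.289 times that of Pdp1 in glia and 0.00103 times in neurons, with 0.0013 times in T4 and 0.000658 times in Pm2.

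The repressor cwo (FBgn0259938, 3R, 10388258 to 10400752, plus strand) stood at 197, 205 and 219 CPM in glia. In neurons it stood at 33.9, 41.7 and 32.2 CPM, in Pm2 at 36.3, 32.2 and 32.8 CPM and in T4 at 18.3, 30.3 and 27.5 CPM. All T4 libraries lay below all neuron and Pm2 libraries, which overlapped each other. Glia were 5.77-fold above neurons (log2 2.53 ± 0.18, SE; edgeR adjusted p = 2.95e-07), 8.17-fold above T4 and 6.13-fold above Pm2. The lower level of T4 did not pass the test against neurons (log2 -0.50 ± 0.18; edgeR adjusted p = 0.0609) or against Pm2 (log2 -0.41 ± 0.18; edgeR adjusted p = 0.0874). Both passed without T4 replicate 2, at edgeR adjusted p-values of 0.0406 and 0.0432, and the first also passed in DESeq2, at 0.046.

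**Figure D2:**
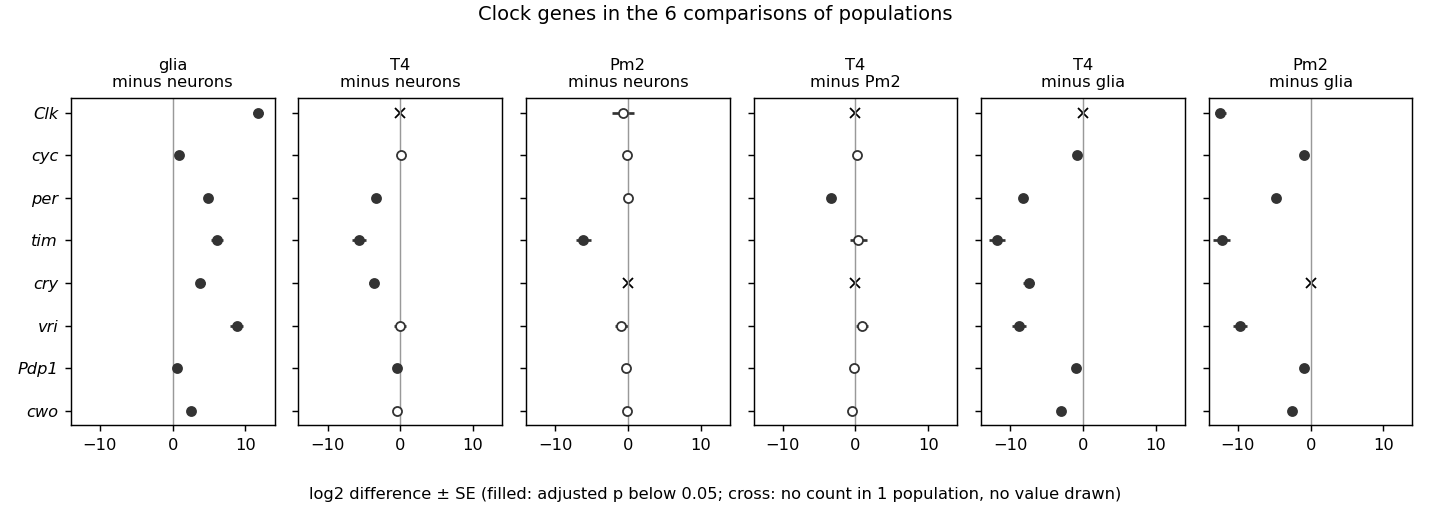
Log2 difference ± SE of each clock gene in the 6 comparisons, as fitted by edgeR; filled points have an adjusted p below 0.05, and crosses mark genes with no count in 1 of the populations, for which no value is drawn. All differences in the first panel are above 0, those drawn in the last 2 panels are below 0, and per is the filled point in the panel of T4 minus Pm2, at -3.39.

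All 8 clock genes were called higher in glia than in neurons, where 30.9% of the 10528 genes tested were called higher and 37.8% lower. The glia and neuron libraries did not overlap for any of the 8, and for 71.6% of all genes they did not. The median log2 difference of the 8 was 4.34, beside -0.17 for all genes tested. Clk entered the test through its glia libraries alone, since no other library had 10 counts. The other 7 genes passed the filter without glia as well. All 8 were called lower in T4 than in glia, where 32.2% of genes were called lower and 35.6% higher, and all 8 were called lower in Pm2 than in glia, where 32.2% were called lower and 33.8% higher. Libraries did not overlap for any of the 8 in either comparison, as for 69.3% of all genes with T4 and 69% with Pm2. These 3 comparisons share the glia libraries.

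Against neurons, per, tim, cry and Pdp1 were called lower in T4, 4 of 8 where 14.5% of all genes were, and none was called higher, where 8.67% of all genes were. With cwo, 5 of 8 did not overlap between T4 and neurons, where 46.5% of all genes did not. In Pm2, tim and cry were called lower than in neurons, 2 of 8 where 20.1% of all genes were, and none was called higher, where 15.5% were. The same 2 genes were those without overlap, where 58.1% of all genes had none. Between the neuron types, cry was called higher in T4, 1 of 8 where 18% of all genes were, and per was called lower in T4, 1 of 8 where 18.4% were. Libraries of T4 and Pm2 did not overlap for per, cyc, cry and cwo, 4 of 8 where 57.4% of all genes did not.

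Levels of different genes were set side by side per kilobase of annotated exon. The length joins the exons of all annotated transcripts of a gene, 12138 bases for Pdp1 and 1896 for cry, whichever transcripts were present. In glia tim led, at 190 CPM per kb, followed by per at 171, Pdp1 at 121, vri at 89.5, cry at 74.2, cyc at 45.9, cwo at 40.7 and Clk at 25.6. On this scale tim in glia was above 97.9% of gene names with a matched length, and Clk was above 84.3%. In neurons, T4 and Pm2 the first 4 places by mean were held by the same genes, in the order Pdp1, cyc, cwo and per. Some places were close: in neurons per stood at 5.81 ± 0.23 and cry at 5.34 ± 0.53 CPM per kb. In Pm2 cwo stood at 6.63 ± 0.44 and per at 6.03 ± 0.95. In neurons, T4 and Pm2, Pdp1 stood at 77.4, 59.3 and 67.2 CPM per kb and cyc at 25.3, 26.5 and 23.5. The level of per fell from 5.81 CPM per kb in neurons and 6.03 in Pm2 to 0.573 in T4. The quantity tim per kb was 2.78 in neurons, 0.0517 in T4 and 0.0409 in Pm2.

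Glial markers were present at low levels in the neuronal libraries, so levels were also written as a share of the glial level. For 8 glial markers this share in neurons ran from 0.0247% for repo to 6.26% for the transporter Eaat1. For the clock genes it was 0.0244% for Clk, 0.222% for vri, 1.46% for tim, 3.40% for per, 7.20% for cry, 17.3% for cwo, 55.1% for cyc and 64.1% for Pdp1. Clk thus lay just below repo, vri, tim and per lay inside the range of the markers, and cry, cwo, cyc and Pdp1 lay above it. For per this rested on Eaat1 alone, since the next highest marker, wrapper, stood at 1.57%, below per. In Pm2 the markers ran from none for repo to 1.76% for moody, a gene of the barrier-forming surface glia, while per stood at 3.54%. In T4 the markers ran from none for wrapper to 1.75% for moody, and per, at 0.336%, and cry, at 0.561%, lay inside that range. The part of glial RNA in the neuronal values was not tested.

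Markers of other cell types were summed in the same way, and in several lists 1 or 2 genes made up most of the sum. The 10 photoreceptor markers summed to 120 to 151 CPM in glia, 372 to 418 CPM in neurons, 40.2 to 61.9 CPM in T4 and 2.98 to 4.81 CPM in Pm2. The diacylglycerol kinase gene rdgA alone stood at 134 CPM in glia and 370.3 CPM in neurons, and in T4 inaC stood at 33.9 CPM and rdgA at 18.4 CPM. The opsin gene ninaE, which defines the outer photoreceptors, stood at 3.22 CPM in glia, 0.512 CPM in neurons and 0 in T4 and Pm2. In Pm2, trp, trpl, ninaC, chp and Arr2 were at 0 too, in glia trp, inaC, chp and Arr1 were, in T4 trp, chp and Arr2 were, and in neurons Arr2 was. The 7 fat body markers summed to 34.3 to 53.5 CPM in glia and to at most 3.52 CPM in any other library. Rfabg (apolpp) alone stood at 39.7 CPM in glia, while Fbp1 and Fbp2 were at 0 there and Yp1 was at 0.446 CPM in glia and 0.500 CPM in neurons. The 6 haemocyte markers summed to 102 to 122 CPM in neurons and to at most 20.1 CPM elsewhere. Pxn alone stood at 113 CPM in neurons, where He and eater were at 0, and Hml and NimC1 were at 0.269 and 0.0142 CPM, below their levels in glia of 0.617 and 4.97 CPM. The summed level of 4 muscle markers was at most 35.4 CPM, in a T4 library. The part of these cell types in the clock gene levels was not tested.

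Within a population the clock genes did not spread alike. In glia, replicate 2 was the lowest library for Clk, at 63.6% of the population mean, for cry, at 64.7%, for tim, at 80.1%, and for per, at 83.7%. It was not the lowest for cyc, vri, Pdp1 or cwo. Among the 8 glial markers, replicate 2 was also lowest for repo, Gs2, nrv2, Gat (CG1732), Eaat1, wrapper and moody, but not for alrm. For nrv2 it stood at 4720 CPM, against 8290 and 6384 CPM in the other glia libraries. A low replicate 2 was thus not particular to clock genes, and its cause was not tested. Between glia libraries Clk varied by 31.5% and cry by 33.6% (SD as a percentage of the mean). The rest varied less, tim by 17.25%, per by 15.9%, cyc by 14.4%, vri by 14.1%, cwo by 5.41% and Pdp1 by 2.62%. In neurons per varied by 3.88% and cry by 9.92%, while tim varied by 27.9%, with library 1 lowest and library 2 highest. With replicate 2 left out, all 8 genes were still called higher in glia than in neurons, where the call of Clk adds no support.

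**Figure D3:**
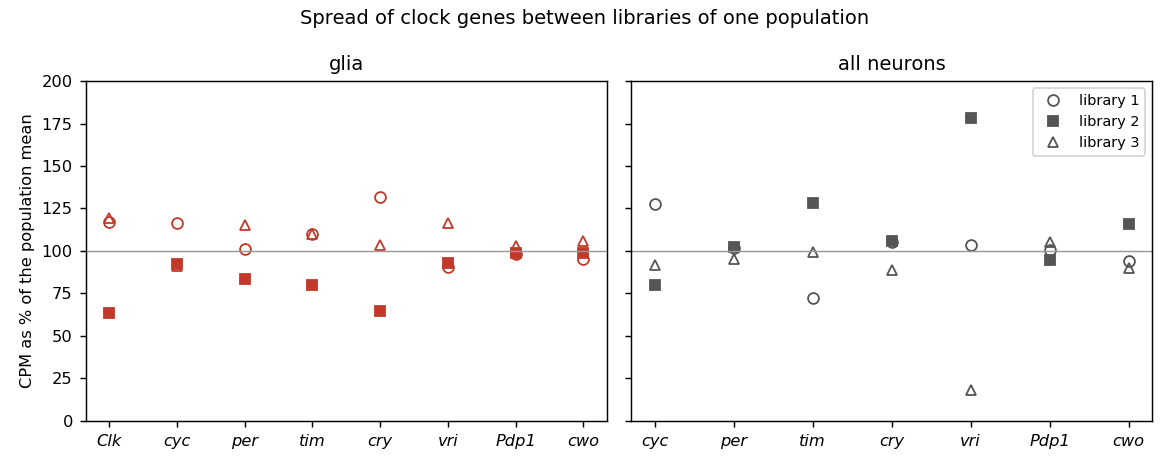
CPM of each clock gene in each library as a percentage of the mean of its population, for glia (left) and all neurons (right, without Clk, which had counts in 1 library); each marker shape is a library. Glia library 2, filled, is at 63.6% for Clk and 64.7% for cry and near 100% for Pdp1 and cwo, and vri shows the widest spread in neurons.

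For each clock gene, the genes with the most similar pattern were sought among 10037 others, as the smallest distance between centred log2 (CPM + 1) profiles over the 12 libraries. The typical gap per library (root mean square) was small for the broadly expressed genes. For cyc the nearest were MSBP, CG4281 and deltaCOP, with gaps of log2 0.13 to 0.14, and MSBP stood at 206 CPM in glia and 117 to 129 CPM in the neuron populations. For Pdp1 the nearest were CG13295 and CG6746, with gaps of log2 0.14 each. For cwo they were gb, CG15202 and Dmtn, at log2 0.20 to 0.23.

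The pattern of per, with Pm2 near neurons and T4 below them, was most like that of CG12177, mgl and w, with gaps of log2 0.39 to 0.54. CG12177 stood at 284 CPM in glia, 6.21 in neurons, 0.786 in T4 and 6.76 in Pm2. The lipoprotein receptor gene mgl stood at 894 CPM in glia, 44.2 in neurons, 4.55 in T4 and 63.8 in Pm2. The gene w, which encodes a pigment-precursor transporter and is also a common marker of fly transgenes, stood at 2142, 44.9, 14.9 and 77.9 CPM in the same order. For tim the nearest gene was zfh1, a transcription factor gene, at 1886 CPM in glia, 20.5 in neurons, 0.991 in T4 and 0.415 in Pm2, followed by CG7509 and mfas, with gaps of log2 0.48 to 0.70. For cry they were CG42342, zfh2 and Dif, at log2 0.47 to 0.58. Clk was nearest to GstD3, CG4733 and CG9689 and vri to Cyp6a17, wgn and Cyp6a20, genes with at most 0.467 CPM in any neuron population. With a pseudocount of 10 in place of 1, 7 of the 24 genes were again among the nearest 3. They included mgl for per, zfh1 and CG7509 for tim, GstD3 for Clk, and MSBP and CG4281 for cyc. None was kept for vri, cry or cwo, so the genes named for these depend on the pseudocount.

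Genes for proteins that modify and degrade clock proteins went both ways. Of 15 kinase, phosphatase and turnover genes, 3 were called higher and 8 lower in glia than in neurons, where 30.9% of all genes were called higher and 37.8% lower. Their median log2 difference was -0.40, beside -0.17 for all genes. The kinase gene dco (doubletime), whose product phosphorylates PERIOD, was 1.40-fold higher in glia, at 165 ± 18 CPM against 118 ± 8 CPM (log2 0.49 ± 0.12, SE; edgeR adjusted p = 0.00395). The kinase gene sgg (shaggy), which acts on TIMELESS, was lower in glia, at 193 ± 45 CPM against 910.2 ± 66.8 CPM (log2 -2.24 ± 0.17; edgeR adjusted p = 3.65e-07). The nemo kinase gene nmo was also lower in glia, at 51.5 ± 8.7 against 397 ± 3 CPM (edgeR adjusted p = 1.02e-08). The ubiquitin ligase gene ctrip, which acts on CLOCK, stood at 1631 ± 197 CPM in glia, 282.5 ± 64.7 in neurons, 192 ± 7 in T4 and 1883 ± 66 in Pm2. In ctrip T4 was 9.81-fold lower than Pm2 (edgeR adjusted p = 7.05e-08), while in this list 2 genes were called higher and 2 lower in T4 than in Pm2 and 11 were not called, near the 18% and 18.4% of all genes.

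Among other regulators of clock transcription, chromatin and translation, 8 of 12 tested genes were called higher and 3 lower in glia than in neurons, where 30.9% and 37.8% of all genes were. Their median log2 difference was 1.25, beside -0.17 for all genes. Hr51 had too few counts to be tested. The AP-1 factor gene kay was 7.79-fold higher in glia, at 497 ± 49 CPM against 63.7 ± 6.5 CPM (log2 2.96 ± 0.17, SE; edgeR adjusted p = 3.76e-08). The gene tyf, whose product promotes translation of per with ATAXIN-2, stood at 754 ± 84 CPM in glia, 126 ± 27 in neurons, 124 ± 14 in T4 and 650.4 ± 49.1 in Pm2. The gene of that partner, Atx2, stood at 1931 ± 489 CPM in glia, 326 ± 30 in neurons, 339 ± 35 in T4 and 2253 ± 133 in Pm2. Both were lower in T4 than in Pm2, tyf by 5.27-fold (edgeR adjusted p = 9.16e-07) and Atx2 by 6.65-fold (edgeR adjusted p = 6.2e-07). In all, 7 of the 12 were called lower and 3 higher in T4 than in Pm2, where 18.4% and 18% of all genes were.

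Of 7 genes of light and temperature input, 2 were called higher and 4 lower in glia than in neurons, where 30.9% and 37.8% of all genes were. Of the 2 higher genes, qsm had 45, 471 and 98 counts in glia and 0, 0 and 1 in neurons. Like Clk it passed the filter only through its glia libraries, so its call adds no support. Rh7, which encodes an opsin known from clock neurons, stood at 48.7 ± 10.7 CPM in neurons, 36.1 ± 9.5 in T4, 2.43 ± 2.14 in glia and 0.282 ± 0.377 in Pm2. It was higher in T4 than in Pm2 (log2 6.996 ± 1.24, SE; edgeR adjusted p = 0.0011). The temperature entrainment gene nocte was higher in Pm2, at 1530 ± 58 CPM against 284 ± 15 in T4 (edgeR adjusted p = 2.42e-07).

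Of 23 tested genes of clock output, clock neuron peptides and excitability, 4 were called higher and 17 lower in glia than in neurons, where 30.9% and 37.8% of all genes were. Among the 4, Irk1 had 85, 319 and 565 counts in glia and 35, 2 and 27 in neurons. It would not have passed the filter without glia, so its call adds no support. The median log2 difference was -3.96 with NPF, which had no count in glia, at its bound, beside -0.17 for all genes. The list mixes glial and neuronal outputs. The gene e (ebony), which encodes a glial enzyme that couples beta-alanine to amines, was far higher in glia, at 2183 ± 167 CPM against 2.48 ± 0.40 CPM (log2 9.79 ± 0.87, SE; edgeR adjusted p = 1.56e-06). The potassium channel gene Ork1 was higher in glia too, at 272 ± 162 CPM against 1.57 ± 0.84, with replicate 2 again the lowest glia library. The peptide gene Dh31 was lower in glia, at 0.312 ± 0.460 CPM against 92.3 ± 7.4. Mid1, an auxiliary gene of the sodium leak channel, stood at 593 ± 14 CPM in T4 and 6.46 ± 1.46 in Pm2 (log2 6.52 ± 0.20; edgeR adjusted p = 2.92e-09). The peptide gene Pdf, which marks the ventral lateral clock neurons, was singled out after its values were seen: it had 1, 21 and 10 counts in neurons, 43, 42 and 83 in T4, 19, 6 and 16 in Pm2 and 0, 2 and 6 in glia. The receptor gene Pdfr, singled out in the same way, stood at 83.2 ± 3.8 CPM in neurons, 72.6 ± 3.9 in T4, 16.1 ± 5.5 in Pm2 and 4.89 ± 2.79 in glia.

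**Figure D4:**
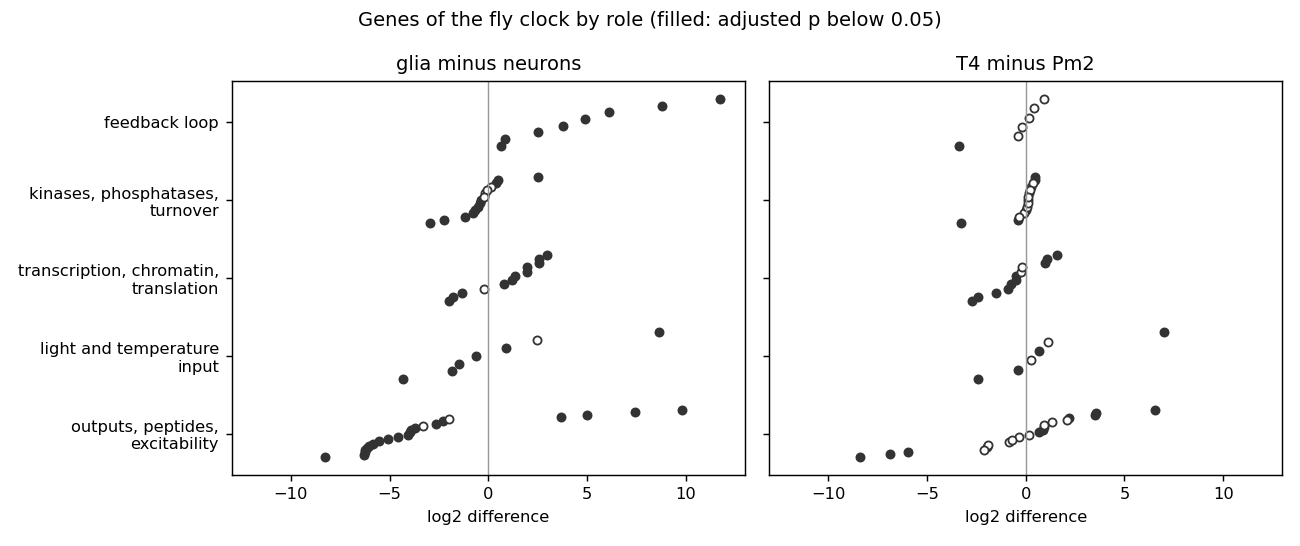
Log2 difference of each tested gene of the fly clock by role, for glia minus all neurons (left) and T4 minus Pm2 (right); filled points have an edgeR adjusted p below 0.05, and genes with no count in 1 of the populations of a panel are not drawn. The 8 feedback loop genes all lie above 0 on the left, while the other lists hold genes on both sides.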

How the data were processed

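The submitters' processing notes name HTSeq 0.6.1, STAR 2.5.2, Trimmomatic 0.32 and the BDGP6 build, without settings. The deposited table holds whole-number counts per gene. Its name calls them normalized, but totals differ between libraries and low values show no gaps, so they were analysed as counts. Per the labels' protocols, RNA was amplified with Smart-Seq v4. Neuron columns were tied to the population but not to single titles, so their numbers are column numbers.

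The 10528 genes that reached 10 counts in 3 or more of the 12 libraries were scaled by TMM. All 12 libraries were fitted together with a mean per population, and the two-sided quasi-likelihood test of edgeR 4.0.16 (R 4.3.3) was used, with Benjamini-Hochberg adjustment over all genes tested and a threshold of 0.05. The SE of a log2 difference is its size divided by the square root of F. The code was tested on simulated data. Coordinates and exon lengths come from the Ensembl annotation of BDGP6. Current symbols covered 11996 names of the table, synonyms 4143, and 133 had no match. Named genes were the 8 members, the 3 genes nearest to each, and from each other list and comparison up to 2 called genes per direction with the largest differences and a mean of at least 100 counts. One gene near Pdp1 is not reported here. The members and lists were chosen with earlier results of these data known. Replicate numbers were not used as pairs. No libraries of a population were duplicates: chi-square values per degree of freedom were 18.5 to 319. Alternatives were median-of-ratios scaling, library totals, no filter, a filter at 100 counts, DESeq2 1.42.0, only the 6 libraries compared, a replicate block and leaving out each library.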

Additional observations from a re-analysis of the deposited data

How the results depend on the processing

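Of the fitted differences of single clock genes, recomputed under each alternative, 554 kept their direction and side of the threshold, 9 lost a call, 5 gained one and 12 changed sign, none of them called before. Of the 9 lost calls, 8 were Pdp1 in T4 against neurons and the other was cyc in T4 against glia with library totals. That scaling moved the median of all genes by -0.20 (log2) between glia and neurons, 0.23 between T4 and glia and 0.14 between Pm2 and glia. It also turned per in Pm2 against neurons to -0.044. With each replicate left out in turn, some small differences changed sign. They ranged from -0.068 to 0.285 for cyc and from -0.79 to 0.77 for vri in T4 against neurons. In Pm2 against neurons they ranged from -0.083 to 0.125 for per, -3.70 to 3.03 for Clk, -0.24 to 0.11 for cyc and -0.161 to 0.032 for cwo, and in T4 against Pm2 from -0.23 to 7.16 for tim. The ends of the Clk range and the 7.16 of tim, the one value among these that was called, come from fits in which a population was at 0, so they depend on the prior count and measure no difference. With libraries left out, clock genes called numbered 3 to 5 for T4 against neurons, 2 to 3 for Pm2 against neurons, 2 to 3 for T4 against Pm2, and 8 in each comparison with glia. The 8 include Clk, whose calls against glia add no support, since it passed the filter through glia alone. DESeq2 gave tim no adjusted p, called 7 clock genes, Clk among them, in each comparison with glia and called 1, cry, in Pm2 against neurons. Over all genes, calls higher in T4 than in neurons numbered 1509 with only the 6 libraries compared and 566 to 724 without a replicate, 566 without T4 replicate 2 and 583 without neuron library 3, against 913; the cause was not tested.

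Same-numbered libraries of T4, Pm2 and glia did not deviate together, with correlations across genes between -0.06 and 0.03. With a replicate block on the 6 libraries compared, 8 clock genes were called in T4 against glia, 8 in Pm2 against glia and 2 in T4 against Pm2, where per differed by -3.39. The counts against glia again include Clk, whose calls add no support. Calls over all genes higher in T4 than in glia numbered 2477 with the block, against 3748 in the main fit of all 12 libraries without it. Both the block and the libraries fitted differ between these numbers, so the part of the block alone is not shown. Near-zero levels (Clk and vri in neurons, tim in T4 and Pm2, cry in T4) rest on few counts, which limits the precision of every difference drawn from them.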
